A study of Mus musculus with 9 samples.

Results

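The 9 genes described here are 4 RAS genes, Nras, Hras, Rras and Rras2, 3 genes of GTPase-activating proteins, Nf1, Rasa1 and Rasal3, and 2 genes of exchange factors, Sos1 and Rasgrp4. They were taken by gene symbol from the 55274 gene identifiers of each expression table, and all 9 were found. Expression was measured by RNA-seq in bone marrow cells of female C57BL/6J mice aged 6 to 8 weeks, which received 150 mg/kg 5-fluorouracil 4 days before harvest. The cells were stimulated for 48 h with 10 ng/mL human IL-6, 6 ng/mL murine IL-3 and 20 ng/mL murine SCF, then transduced with retroviral vectors. After transduction they were sorted by fluorochrome and expanded, and RNA was isolated. There were 3 groups of 3 libraries. NRASG12D cells carried the mutant RAS in an MSCV-IRES-BFP vector, NUP98-NSD1 cells carried the fusion gene in an MSCV-IRES-GFP vector, and NUP98-NSD1+NRASG12D cells, also called double transduced cells here, carried both. No untransduced or empty-vector library is among the 9, so all comparisons are between these 3 groups.

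RAS proteins are small GTPases that signal when bound to GTP. Exchange factors such as SOS1 and RASGRP4 load them with GTP, and GTPase-activating proteins (GAPs) such as neurofibromin, the product of Nf1, speed the hydrolysis that switches them off. A G12D change, glycine to aspartate at codon 12, makes the protein largely insensitive to GAPs and keeps it in the active state, and such mutations are frequent in myeloid leukemia. NUP98-NSD1 is a fusion of a nuclear pore protein with NSD1, an enzyme that methylates histones. The question was whether other RAS genes, GAPs or exchange factors changed together with Nras.

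Values are FPKM, which count fragments relative to transcript length and to the size of the library, so levels can be compared between genes. Depth was estimated from the step between low values at about 23500000 to 37000000 fragments per library. Group differences are log2 fold changes of FPKM + 1, a scale that understates changes of genes near or below 1 FPKM. They were tested with limma over 13493 genes that reached 1 FPKM in at least 3 of the 9 libraries, and "called" means a Benjamini-Hochberg adjusted p below 0.05. Of the 9 genes, 8 passed this filter and Rras2 did not. Rras passed only through the NUP98-NSD1+NRASG12D libraries, each of which was above 1 FPKM, and Nf1 only through the 6 libraries with the fusion. Sos1 passed only through the NRASG12D libraries, since besides them replicate 2 of the double transduced cells alone reached 1 FPKM. The labels do not say whether libraries of a group came from separate mice, so p-values measure the spread between these libraries, which may be technical.

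The groups also differed in cell type markers. Summed over 10 mast cell genes, NRASG12D libraries had 30000 to 32700 FPKM, NUP98-NSD1 libraries 26800 to 31900 and double transduced libraries 739 to 4330. Of these genes, Cpa3 alone was listed at 0 in NRASG12D cells, and without it the sums were 30000 to 32700, 13700 to 17500 and 459 to 2510 FPKM. The sum of 10 neutrophil granulocyte genes was 29.7 to 36.9, 1730 to 6130 and 8870 to 19500 FPKM in the same order, and that of 8 monocyte and macrophage genes was 44.6 to 60.6, 508 to 943 and 1830 to 4690 FPKM. The study describes the NRASG12D cells as mostly mast cells. Single mast cell genes did not all follow the sums without Cpa3. NUP98-NSD1 libraries had more Mcpt4 (415 to 491 FPKM) than NRASG12D libraries (33.2 to 101 FPKM). They also had more Hdc (51.8 to 169 against 1.6 to 8.72 FPKM), which double transduced libraries held at 8.08 to 129 FPKM. Kit, Fcer1a, Ms4a2, Tpsb2 and Cma1 were lower in NUP98-NSD1 than in NRASG12D libraries, while Tpsab1 and Gata2 overlapped. The neutrophil genes Mpo, Elane, Prtn3 and Ctsg overlapped between NUP98-NSD1 and double transduced libraries, Mpo at 463 to 2550 and 131 to 5140 FPKM. Adgre1, Ccr2 and Mrc1 of the monocyte and macrophage genes did so too. Ly6g overlapped between NRASG12D and NUP98-NSD1 libraries. The other genes of both lists followed the order of the sums. The part of cell type in the differences below was not tested, and fewer cells of a type and less RNA per cell cannot be told apart. A value of 0 has to be read with care, since Cpa3, a mast cell protease gene, was listed at 0 in all NRASG12D libraries and at 12600 to 14400 FPKM in NUP98-NSD1 cells.

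Nras (ENSMUSG00000027852.14, GRCm38 chromosome 3 from 103058285 to 103067914, plus strand) was the gene altered by the vector.

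In NRASG12D cells Nras had 354, 479 and 348 FPKM. In NUP98-NSD1 cells, which carry no RAS vector, it had 50.3, 47.7 and 51.2 FPKM. In NUP98-NSD1+NRASG12D cells it had 245, 262 and 701 FPKM. All 6 libraries with the vector were above all 3 without it, and replicate 3 of the double transduced cells stood above the other 2 of its group. Compared with NRASG12D cells, Nras was lower in NUP98-NSD1 cells (log2 fold change -2.94, SE 0.13, adjusted p = 4.05e-05), and compared with these it was higher in double transduced cells (log2 fold change 2.81, SE 0.40, adjusted p = 0.011). The second call was lost without replicate 3 of NUP98-NSD1, at a log2 fold change of 2.84, and without the filter (adjusted p = 0.105). The 2 groups that carry the vector overlapped, with a log2 fold change of -0.13 and a 95% interval from -1.11 to 0.85. Without replicate 3 of the double transduced cells this difference was -0.62, and without replicate 1 of that group it was 0.14.

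Vector and endogenous transcripts enter the same Nras value, and the species of the cDNA in the vector is not given in the sources used here. The coding part is 567 of the 4470 bases, or 12.7%, of the longest Nras transcript, so reads from a vector that carries only the coding part would be spread over a length they do not cover. The Nras value is therefore no measure of the number of vector transcripts. Taken over all 4470 bases, it would correspond to 5750 to 79300 fragments per library, a number that reads from the vector need not follow.

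**Figure D1:**
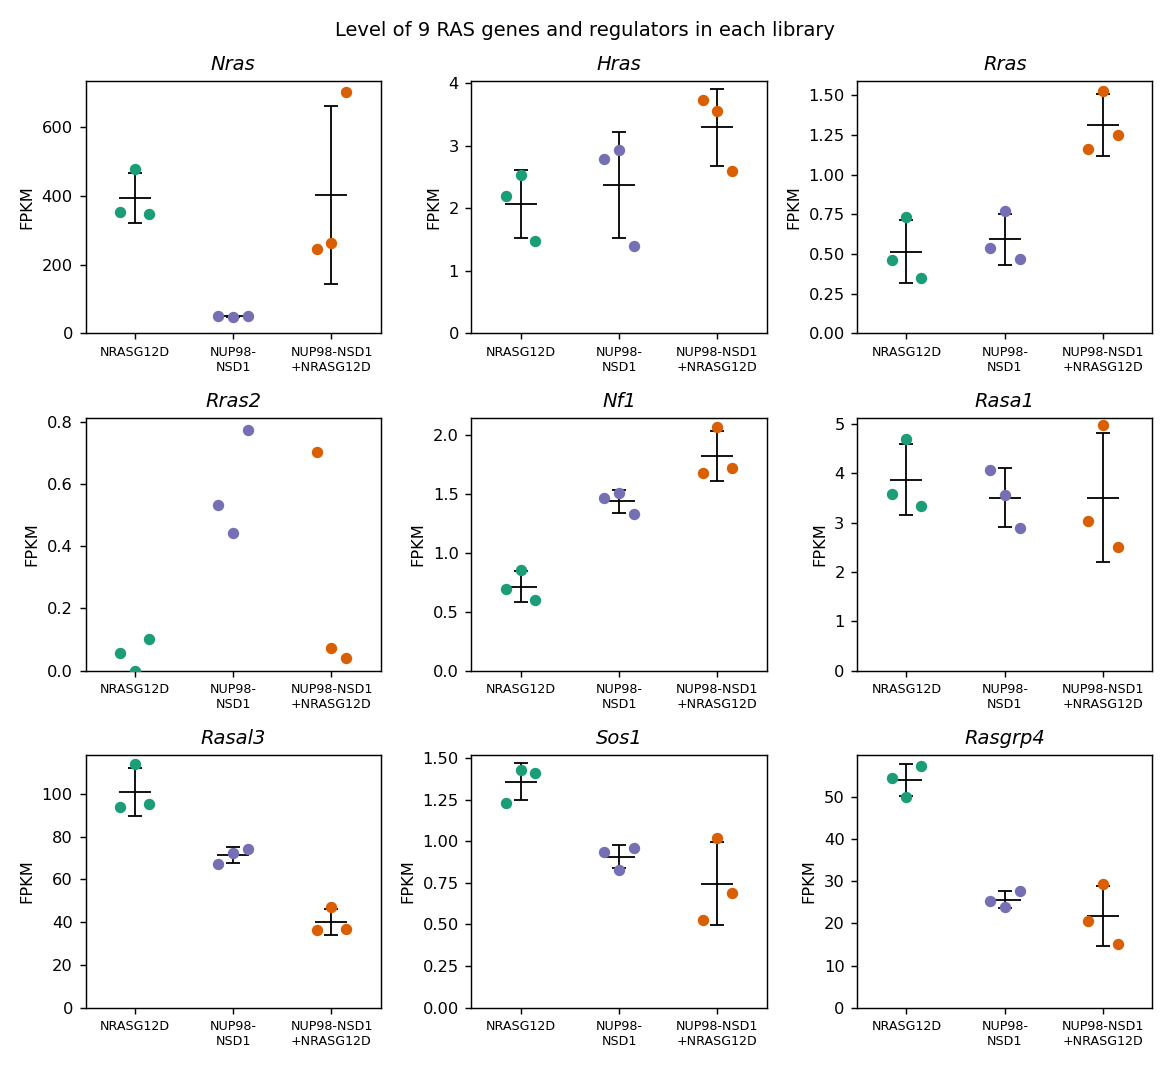
FPKM of the 9 genes in each library, 1 panel per gene with its own linear axis from 0. Points are libraries, horizontal marks the group mean and bars the SD (n = 3), left out for Rras2, which has a library listed at 0. Nras is low only in NUP98-NSD1 cells, while Rasal3 steps down over the 3 groups from 101 to 71.3 and 40.2 FPKM.

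Genes next to Nras were followed as a description. The muscle AMP deaminase gene Ampd1 was at or below 0.0965 FPKM in every library.

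Of 5 other tested genes that were followed within 500 kb of Nras, 2 were called in NUP98-NSD1 against NRASG12D cells. The log2 fold changes of the 5 lay between -1.25 for Tspan2 and 0.72 for Bcas2, a spliceosome component. In the double transduced against NRASG12D cells 3 were called, Tspan2 at -1.66, Bcas2 at 0.91 and Dennd2c at 1.08. Against NUP98-NSD1 cells only Dennd2c was called, at 0.73. Of all tested genes, 52.1%, 38.3% and 8.61% were called in these comparisons. The Bcas2 call in double transduced cells was lost without the filter and without any 1 of the NRASG12D replicates or double transduced replicate 3, at 0.79 to 0.98. Sike1 and Trim33 were called in none of the 3. Tspan2 and Dennd2c are named because they lie in this window, after their values were seen.

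**Figure D2:**
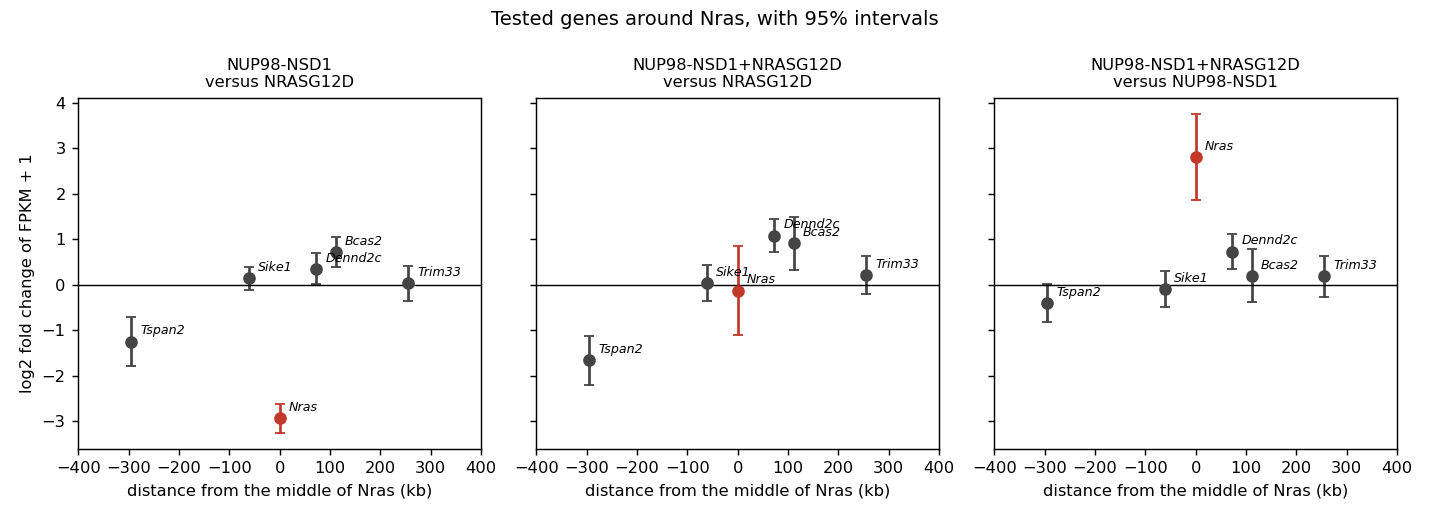
Log2 fold change of FPKM + 1 against the distance from the middle of Nras in kb for Nras and 5 tested genes within 500 kb, 1 panel per comparison, with 95% intervals from limma. Nras (red) is at -2.94 and 2.81 in the comparisons in which 1 side lacks the RAS vector, and over all 3 panels these neighbours lie between -1.66 and 1.08.

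Nras stood far above the other RAS genes described here in all groups. Vector transcripts enter its value in the 2 groups with the RAS vector, so the shares that follow are descriptions. In the sum of Nras, Hras, Rras, Rras2 and Mras, Nras made up 99.2% to 99.4% in the NRASG12D libraries. It made up 92% to 94.9% in the NUP98-NSD1 libraries and 97.8% to 99.4% in the double transduced libraries. The other 4 of these genes together came to 1.95 to 3.32, 2.75 to 4.14 and 4.01 to 5.62 FPKM. These sums overlapped between NUP98-NSD1 cells and each of the other groups, while every double transduced library was above every NRASG12D library.

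**Figure D3:**
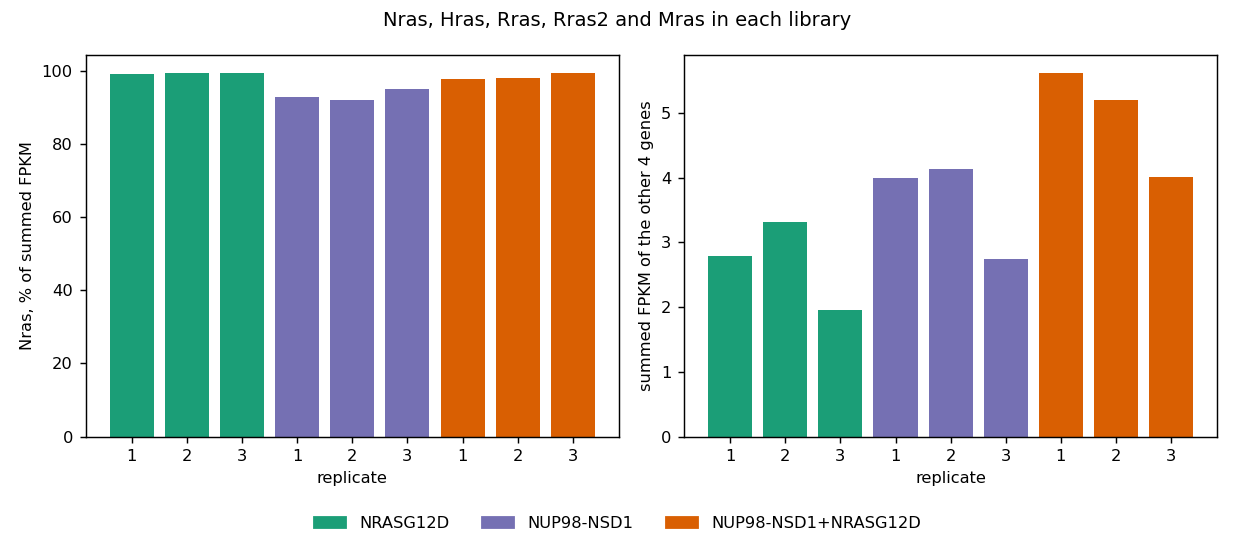
Share of Nras in the summed FPKM of Nras, Hras, Rras, Rras2 and Mras in percent (left) and the summed FPKM of the other 4 (right), with 1 bar per library and colours for the groups. Nras takes at least 97.8% in the 6 libraries with the RAS vector and at most 94.9% in the others, while the sum of the other genes lies between 1.95 and 5.62 FPKM throughout. Vector transcripts enter the Nras value in those 6 libraries.

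Hras (ENSMUSG00000025499.18, chromosome 7 from 141189105 to 141194005, minus strand), a ubiquitously expressed RAS gene, was low in all groups. It had 2.2, 2.54 and 1.48 FPKM in NRASG12D cells, 2.79, 2.93 and 1.39 FPKM in NUP98-NSD1 cells, and 3.73, 3.56 and 2.59 FPKM in NUP98-NSD1+NRASG12D cells. Every double transduced library was above every NRASG12D library, at a log2 fold change of 0.49 (95% interval -0.01 to 0.98, adjusted p = 0.104 by limma), and it was not called. The difference between NUP98-NSD1 and NRASG12D cells was 0.11 with an interval from -0.43 to 0.66, and it turned to -0.26 under quantile normalization and -0.12 under median-ratio scaling. Against NUP98-NSD1 cells, the double transduced cells were at 0.37 (interval -0.21 to 0.96).

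Rras (ENSMUSG00000038387.9, chromosome 7 from 45017961 to 45021647, plus strand) encodes R-RAS, a RAS relative linked to integrin-dependent adhesion. It had 0.460, 0.735 and 0.352 FPKM in NRASG12D cells, 0.538, 0.771 and 0.468 FPKM in NUP98-NSD1 cells, and 1.16, 1.53 and 1.25 FPKM in NUP98-NSD1+NRASG12D cells. The double transduced libraries were above all others. Against NRASG12D cells the log2 fold change was 0.62 (SE 0.17, adjusted p = 0.0309), with a ratio of mean FPKM of 2.55. Rras entered the test only through the group in which it was high, so this call is a description. It was lost at a log2 fold change of 0.32 under quantile normalization, 0.53 under median-ratio scaling and 0.62 both without the filter and with a replicate block, and also without NRASG12D replicate 1 or 3 or double transduced replicate 3 (0.54 to 0.63). Against NUP98-NSD1 cells the log2 fold change was 0.54 with an adjusted p of 0.0882. These values rest on an estimated 8.24 to 38.8 fragments per library, taken over the full length of the longest transcript.

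Rras2 (ENSMUSG00000055723.6, chromosome 7 from 114046782 to 114117781, minus strand) encodes TC21, another R-RAS protein. It was at 0.0561 and 0.10 FPKM and listed at 0 in replicate 2 of NRASG12D cells, at 0.534, 0.443 and 0.773 FPKM in NUP98-NSD1 cells, and at 0.702, 0.0738 and 0.0393 FPKM in NUP98-NSD1+NRASG12D cells. All NUP98-NSD1 libraries were above the NRASG12D libraries (exact permutation test, two-sided p = 0.1, the smallest that 3 against 3 libraries can give). Among the double transduced cells, replicate 1 lay within the range of NUP98-NSD1 cells and the other 2 within that of NRASG12D cells. With no filter on low values, limma gave a log2 fold change of 0.59 (adjusted p = 0.0354) for NUP98-NSD1 against NRASG12D cells, the only call among its 3 comparisons. The 3 fragments taken as a floor correspond to 0.0229 to 0.0361 FPKM for this gene.

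Mras, which was not among the 9, was at or below 0.126 FPKM in every library and was not tested.

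Nf1 (ENSMUSG00000020716.16, chromosome 11 from 79339693 to 79581612, plus strand), the tumor suppressor GAP that is lost in neurofibromatosis and in juvenile myelomonocytic leukemia, was higher in both groups with the fusion. It had 0.690, 0.853 and 0.598 FPKM in NRASG12D cells, 1.47, 1.51 and 1.33 FPKM in NUP98-NSD1 cells, and 1.68, 2.07 and 1.72 FPKM in NUP98-NSD1+NRASG12D cells. None of the 3 groups overlapped. Every NRASG12D library was below 1 FPKM, so Nf1 entered the test only through the groups in which it was high. In NUP98-NSD1 against NRASG12D cells it rose (log2 fold change 0.51, SE 0.13, adjusted p = 0.0134), beside a median of 0.27 over all tested genes. This call was lost under quantile normalization, where the log2 fold change was 0.05, and without replicate 2 of NUP98-NSD1, at 0.49. In double transduced against NRASG12D cells Nf1 rose (log2 fold change 0.72, SE 0.16, adjusted p = 0.0131), beside a median of 0.23 over all tested genes. It lost that call without NRASG12D replicate 1 or 3, at 0.71 and 0.67. Both calls held without the filter. The double transduced and NUP98-NSD1 cells differed by 0.21 (interval -0.15 to 0.57), which was not called. Evi2a and Evi2b lie on the opposite strand inside Nf1, and 0.0684% of the 50 base stretches of Nf1 transcripts occurred in transcripts of any other gene.

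Rasa1 (ENSMUSG00000021549.14, chromosome 13 from 85214780 to 85289130, minus strand), which encodes p120 RasGAP, overlapped in all 3 comparisons. It had 3.59, 4.69 and 3.33 FPKM in NRASG12D cells, 4.07, 3.57 and 2.89 FPKM in NUP98-NSD1 cells, and 3.03, 4.98 and 2.5 FPKM in NUP98-NSD1+NRASG12D cells. Its log2 fold changes were -0.11 (95% interval -0.48 to 0.26) for NUP98-NSD1 against NRASG12D, -0.14 (interval -0.72 to 0.44) for double transduced against NRASG12D and -0.03 (interval -0.61 to 0.55) for double transduced against NUP98-NSD1 cells. The last turned to 0.08 under quantile normalization and 0.05 under median-ratio scaling. The first was called under quantile normalization, at -0.45.

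Rasal3 (ENSMUSG00000052142.15, chromosome 17 from 32390659 to 32403583, minus strand), a GAP of hematopoietic cells, was the most abundant of the 3 GAP genes among the 9 and the single one of the 9 called in all 3 comparisons. It had 93.6, 114 and 95.4 FPKM in NRASG12D cells, 67.2, 72.4 and 74.3 FPKM in NUP98-NSD1 cells, and 36.2, 47.3 and 37.0 FPKM in NUP98-NSD1+NRASG12D cells. The 3 groups did not overlap, and the double transduced cells were lowest. Rasal3 fell in NUP98-NSD1 against NRASG12D cells (log2 fold change -0.49, SE 0.10, adjusted p = 0.00647), in double transduced against NRASG12D cells (log2 fold change -1.31, SE 0.17, adjusted p = 0.00131) and in double transduced against NUP98-NSD1 cells (log2 fold change -0.82, SE 0.16, adjusted p = 0.0277). The first pair of calls held in all 13 alternatives. The last was lost in 7 of 13, without the filter, under median-ratio scaling, with a replicate block and without any 1 of the NUP98-NSD1 replicates or double transduced replicate 3, at log2 fold changes from -0.72 to -0.86.

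The 250 bases before the Rasal3 start, from RefSeq on GRCm38.p6 at chr17:32403583-32403832, minus strand, are shown because this gene differed between all 3 groups. Capitals mark the single match to the E-box CACGTG, the palindrome bound by factors such as MYC.
Rasal3: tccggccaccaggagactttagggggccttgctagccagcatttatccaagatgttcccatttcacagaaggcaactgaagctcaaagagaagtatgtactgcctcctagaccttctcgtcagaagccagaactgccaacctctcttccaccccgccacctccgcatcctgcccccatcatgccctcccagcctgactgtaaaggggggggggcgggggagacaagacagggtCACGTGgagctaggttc
The motif begins 17 bases before the start, and 6.05% of 27025 promoters of the same length hold it, that of Nras among them at 15 bases. On both strands ACCGGAAG, AGATAA and TGACTCA were also searched and had no match here. CACGTG is its own reverse complement and overlaps none of the others. The table had promoters for 8 of the 9 genes, and Rasgrp4 is named only.

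An opposite-strand gene, ENSMUSG00000117872.1, named A530088E08Rik in the tables and CT485616.1 in the annotation, shares 10.5% of the 50 base stretches of Rasal3 transcripts. Strand-specific counting is not stated, so reads there cannot be assigned to 1 gene with certainty. Its level was 2.25 to 2.86 FPKM in NRASG12D libraries, 1.34 to 1.64 FPKM in NUP98-NSD1 libraries and 0.460 to 1.25 FPKM in double transduced libraries. It was thus lowest in the same cells as Rasal3, at a far lower level.

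Ratios of GAP genes within a library are given as a description. Rasal3 FPKM per Nf1 FPKM was 133 to 159 in the NRASG12D libraries, 45.9 to 55.8 in the NUP98-NSD1 libraries and 21.5 to 22.8 in the double transduced libraries. A scaling factor per library would not alter this ratio. Nf1 was below 1 FPKM in every NRASG12D library and passed the filter only through the groups in which it was high. Rasal3 per Rasa1 was 24.2 to 28.6, 16.5 to 25.7 and 9.49 to 14.8 in the same order, so here the first pair of groups overlapped. The summed FPKM of the 3 GAP genes was 105 ± 11.9, 76.3 ± 3.09 and 45.5 ± 7.65 (SD, n = 3 each), of which Rasal3 made up 87.0% to 96.0%.

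Sos1 (ENSMUSG00000024241.7, chromosome 17 from 80393751 to 80480453, minus strand) encodes the exchange factor that GRB2 brings to activated receptors. It had 1.23, 1.43 and 1.41 FPKM in NRASG12D cells, 0.932, 0.828 and 0.957 FPKM in NUP98-NSD1 cells, and 0.528, 1.02 and 0.689 FPKM in NUP98-NSD1+NRASG12D cells. All NRASG12D libraries were above all others, but neither difference was called, at log2 fold changes of -0.31 (adjusted p = 0.0654) for NUP98-NSD1 and -0.44 (adjusted p = 0.0827) for double transduced cells. Both were called under median-ratio scaling, at -0.48 and -0.56, and under quantile normalization, at -0.90 and -0.62. The first was also called without NUP98-NSD1 replicate 3, at -0.33, and the second without double transduced replicate 2, at -0.55. Sos1 passed the filter only through the NRASG12D libraries, in which it was high, so these calls are descriptions. The NUP98-NSD1 and double transduced cells overlapped, with a log2 fold change of -0.14 that turned to 0.27 under quantile normalization.

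Rasgrp4 (ENSMUSG00000030589.15, chromosome 7 from 29134851 to 29153961, plus strand) encodes an exchange factor activated by diacylglycerol and calcium and known from mast cells. It had 54.5, 49.9 and 57.4 FPKM in NRASG12D cells, 25.4, 23.8 and 27.8 FPKM in NUP98-NSD1 cells, and 20.6, 29.4 and 15.2 FPKM in NUP98-NSD1+NRASG12D cells. Every NRASG12D library was above every other library. Rasgrp4 fell in NUP98-NSD1 against NRASG12D cells (log2 fold change -1.04, SE 0.09, adjusted p = 0.000515) and in double transduced against NRASG12D cells (log2 fold change -1.32, SE 0.24, adjusted p = 0.00552). The double transduced and NUP98-NSD1 cells overlapped, at -0.28 (95% interval -0.85 to 0.30). The part of cell type in the Rasgrp4 values was not tested. Within libraries Rasgrp4 was 22 to 44.4 times as high as Sos1 per transcript length. Fam98c on the opposite strand accounts for most of the 13.9% of 50 base stretches that Rasgrp4 shares with other genes, and it was at 29.3 to 34.5 FPKM in NRASG12D, 35.9 to 41.3 FPKM in NUP98-NSD1 and 29.1 to 43.5 FPKM in double transduced cells. Between the first pair of groups it was thus ordered the other way than Rasgrp4.

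Counted over the genes that passed the filter, 4 of 8 were called in NUP98-NSD1 against NRASG12D cells, beside 52.1% of all tested genes. Of these Nf1 was higher, in a background of 42.2% higher, and Nras, Rasal3 and Rasgrp4 were lower, in a background of 9.98% lower. In double transduced against NRASG12D cells 4 of 8 were called, beside 38.3% of all tested genes, with Rras and Nf1 higher (24.2% of all higher) and Rasal3 and Rasgrp4 lower (14.1% of all lower). In double transduced against NUP98-NSD1 cells 2 of 8 were called, beside 8.61% of all tested genes, with Nras higher (2.30% of all higher) and Rasal3 lower (6.31% of all lower). Nf1 and Rras passed the filter only through the groups in which they were high, so their rises in these counts support nothing about the 9 genes. The share in the first comparison is close to its background, and Nras, which the vector alters, is among the calls of the first and the last. Of all 9 genes, 6, 6 and 4 had groups that did not overlap in these comparisons, beside 64.2%, 58.6% and 31.4% of all tested genes.

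The median log2 fold change over all tested genes was 0.27, 0.23 and -0.06 for the 3 comparisons, and close to 0 after quantile normalization or median-ratio scaling. The share of higher genes among all calls was 80.9%, 63.1% and 26.8%, against 43.2%, 41.3% and 36.7% under quantile normalization and 49.3%, 50.9% and 32.6% under median-ratio scaling. The 8 genes, Rras, Nf1 and Sos1 included, had medians of -0.21, -0.14 and 0.09, given as a description.

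**Figure D4:**
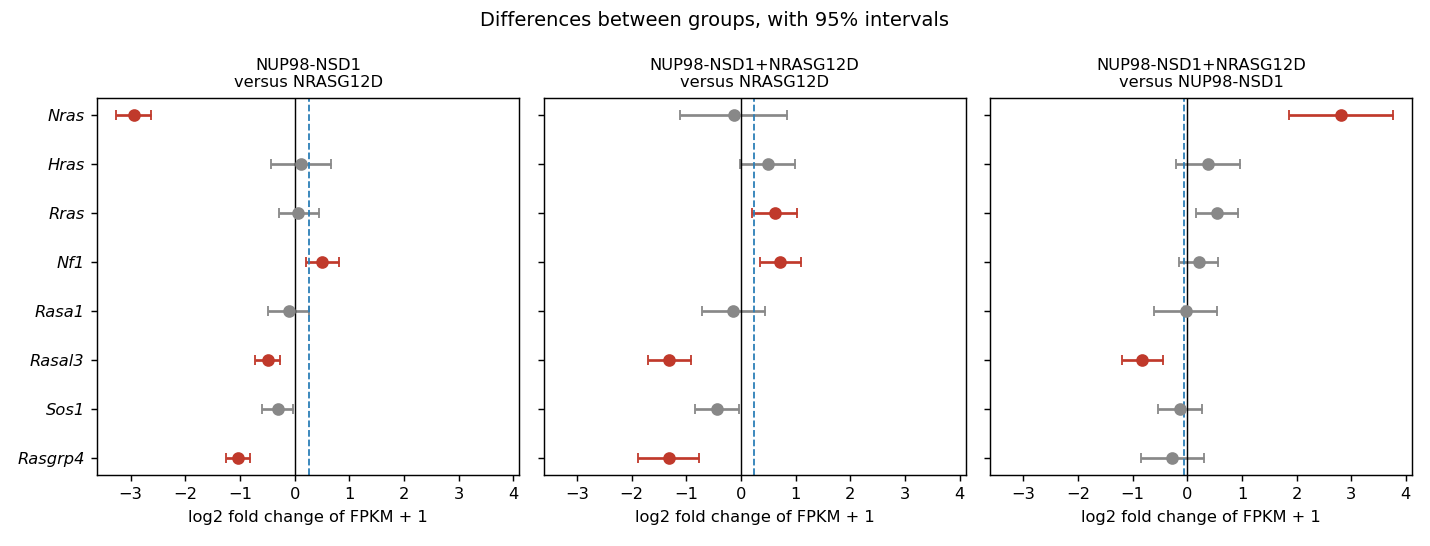
Log2 fold change of FPKM + 1 for the 8 tested genes in the 3 comparisons, with 95% intervals from limma. Red marks an adjusted p below 0.05, grey the rest, and the dashed line the median of all tested genes (0.27, 0.23 and -0.06). Rasal3 lies to the left of 0 in every panel, Nf1 to the right.

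With Nras over the 9 libraries, Pearson's r of log2(FPKM + 1) was between -0.26 and 0.33 for Hras, Rras, Nf1, Rasa1, Rasal3, Sos1 and Rasgrp4, and -0.78 for Rras2. The points share their library and fall into groups with and without the RAS vector, so these values are descriptions. The 3 tested genes most like Nras by this measure were Svil (r = 0.967), which encodes the actin-binding supervillin, Ccnd1 (r = 0.918), which encodes cyclin D1, and the kinase gene Alpk1 (r = 0.914). Svil had 12, 13.7 and 11.6 FPKM in NRASG12D cells, 6.38, 6.65 and 6.20 in NUP98-NSD1 cells and 10.2, 12.6 and 19.9 in NUP98-NSD1+NRASG12D cells. Ccnd1 had 10.1, 50.1 and 32.9, then 2.16, 3.85 and 2.85, and 18.5, 40.8 and 48.4 FPKM in the same order. As for Nras, the NUP98-NSD1 libraries of both genes were below all others, and replicate 3 of the double transduced cells was the highest of its group. Both were picked for their correlation with Nras over these libraries, so this likeness follows from the choice and supports nothing further.

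Beyond the 9 genes, 95 others of the RAS pathway were followed in 6 lists, of which 80 were tested. In NUP98-NSD1 against NRASG12D cells 23 were higher, 14 lower and 43 not called, so that 46.2% were called beside 52.1% of all tested genes. The double transduced cells had 24 higher, 16 lower and 40 not called against NRASG12D cells, or 50.0% called beside 38.3%. Between double transduced and NUP98-NSD1 cells 7 were higher, 6 lower and 67 not called, or 16.2% called beside 8.61%. In each comparison with NRASG12D cells, 4 of the rises were of genes below 1 FPKM in every NRASG12D library, Rasgrp2, Rasa4 and Rin2 among them, which passed the filter only through the groups in which they were high. In each, 1 of the falls was of the effector list gene Rgl3. It was below 1 FPKM in every library with the fusion and passed only through the NRASG12D libraries. The counts and shares called below include these genes. The lists were not tested against each other or against all genes. The genes named from these lists are those with the 3 largest rises and falls of each comparison.

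Among 9 other tested exchange factor genes, 3 rose and 1 fell in NUP98-NSD1 against NRASG12D cells, and 3 rose and 2 fell in double transduced against NRASG12D cells (44.4% and 55.6% called, beside 52.1% and 38.3% of all tested genes). Rasgrp2, whose product acts mainly on RAP1, had 0.0413, 0.584 and 0.201 FPKM in NRASG12D cells, 69.2, 71.9 and 19.6 FPKM in NUP98-NSD1 cells, and 178, 59.5 and 71.4 FPKM in NUP98-NSD1+NRASG12D cells. The NRASG12D libraries were far below all others, at log2 fold changes of 5.23 (adjusted p = 0.000531) and 6.20 (adjusted p = 0.000128). Rasgrp2 and Rasgrp4, of the same family, differed from NRASG12D cells in opposite directions. None of the 9 was called between double transduced and NUP98-NSD1 cells, beside 8.61% of all tested genes.

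The GAP list had 6 other tested genes, Rasa2, Rasa3, Rasa4, Dab2ip, Iqgap1 and Lztr1. Iqgap1 and Lztr1 were counted in it although they do not encode RAS GAPs. In NUP98-NSD1 against NRASG12D cells 1 rose and 2 fell, Iqgap1 (-0.54) among the falls. In double transduced against NRASG12D cells 2 rose and 2 fell, Lztr1 (-0.57) among the falls. The shares called were 50.0% and 66.7%, beside 52.1% and 38.3% of all tested genes. Rasa4, a calcium-dependent GAP, had 0.297 to 0.365 FPKM in NRASG12D cells, 2.93 to 3.81 FPKM in NUP98-NSD1 cells and 7.33 to 15.5 FPKM in NUP98-NSD1+NRASG12D cells. The groups did not overlap, and Rasa4 was the one gene of this list called between double transduced and NUP98-NSD1 cells, at 1.39 (adjusted p = 0.030). This call was lost without any 1 of the NUP98-NSD1 replicates, at 1.33 to 1.48, and without the filter (adjusted p = 0.159).

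Receptor adaptors link activated receptors to exchange factors. Their list, which also holds enzymes such as Plcg1, included the largest fall of the listed genes. Of 15 tested genes, 4 rose and 5 fell in NUP98-NSD1 against NRASG12D cells, 4 rose and 5 fell in double transduced against NRASG12D cells, and 1 rose and 4 fell in double transduced against NUP98-NSD1 cells. The shares called were 60%, 60% and 33.3%, beside 52.1%, 38.3% and 8.61% of all tested genes. Lat, a membrane scaffold of T cell and mast cell receptor signaling, had 425, 486 and 419 FPKM in NRASG12D cells, 173, 198 and 289 FPKM in NUP98-NSD1 cells, and 10.7, 42.7 and 7.81 FPKM in NUP98-NSD1+NRASG12D cells. The groups did not overlap, and the log2 fold changes were -1.04, -4.74 and -3.71 for the 3 comparisons (adjusted p = 0.00436, 0.000944 and 0.0146 by limma). The first call was lost with all 9 libraries in 1 fit (adjusted p = 0.15). The last call was lost without NUP98-NSD1 replicate 2 or 3, at -3.77 and -3.49, and without the filter (adjusted p = 0.13). Plcg1, the phospholipase that forms diacylglycerol, was at 20.7 to 32.4, 15.6 to 22.7 and 1.35 to 3.40 FPKM, and fell by -3.09 and -2.48 in the double transduced cells against NRASG12D and NUP98-NSD1 cells, the latter lost without the filter (adjusted p = 0.0652). Grap2, an adaptor that binds LAT complexes, fell by -1.11 (adjusted p = 0.0133) in NUP98-NSD1 against NRASG12D cells, a call lost without NUP98-NSD1 replicate 2, at -1.04, and without the filter (adjusted p = 0.083).

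Of the 25 tested effector and scaffold genes, 9 rose and 5 fell in NUP98-NSD1 against NRASG12D cells, 10 rose and 6 fell in double transduced against NRASG12D cells, and 4 rose and 2 fell in double transduced against NUP98-NSD1 cells. The shares called were 56.0%, 64.0% and 24%, beside 52.1%, 38.3% and 8.61% of all tested genes. Rassf4, a RAS-association domain gene, had 0.206 to 1.19 FPKM in NRASG12D cells, 13.8 to 29.6 FPKM in NUP98-NSD1 cells and 56.8 to 63.4 FPKM in NUP98-NSD1+NRASG12D cells. It was called in all 3 comparisons, at 3.55, 5.11 and 1.56. The last was lost without NUP98-NSD1 replicate 2 or 3 or double transduced replicate 3, at 1.32 to 1.61, and without the filter (adjusted p = 0.127). Rin2, a RAS-binding exchange factor for RAB5, rose by 3.58 in double transduced against NRASG12D cells and by 1.54 against NUP98-NSD1 cells. The latter call was lost in 8 of 13 alternatives, without any 1 of the NUP98-NSD1 replicates or double transduced replicate 3, with a replicate block, without the filter, under median-ratio scaling and with a pseudocount of 0.1, at 1.45 to 1.74. Ralgds, an exchange factor for RAL, rose by 2.05 in NUP98-NSD1 against NRASG12D cells. Tiam1, a RAC exchange factor that binds RAS, was at 54.6 to 79.6, 31.9 to 45.2 and 11.6 to 14.9 FPKM, and fell by -0.90, -2.37 and -1.47 in the 3 comparisons, the first and the last lost without the filter (adjusted p = 0.0504 and 0.0655).

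Of 13 tested GTPase genes, 4 rose and 1 fell in each comparison with NRASG12D cells, and 1 rose in double transduced against NUP98-NSD1 cells. The shares called were 38.5%, 38.5% and 7.69%, beside 52.1%, 38.3% and 8.61% of all tested genes. Of 12 tested genes of RAS lipid processing and trafficking, 2 rose in NUP98-NSD1 and 1 in double transduced against NRASG12D cells. None was called between the other pair. This gives 16.7% and 8.33% in the first 2 comparisons. The list medians beside those of all tested genes were 0.14, 0.18 and 0.03 for the GTPases and 0.17, 0.19 and -0.02 for lipid processing. They were 0.01, -0.01 and 0.12 for the GAP list and 0.27, -0.07 and -0.32 for exchange factors. For the adaptor list they were -0.09, -0.15 and 0.05, and for effectors 0.09, 0.32 and 0.03.

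**Figure D5:**
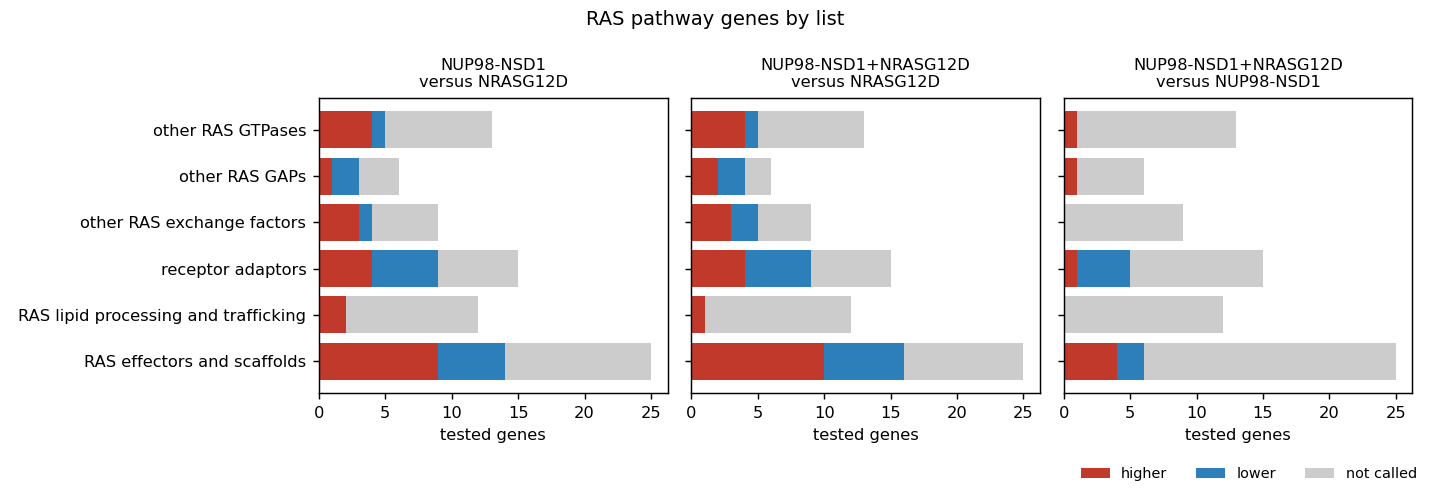
Number of tested genes in 6 RAS pathway lists that were higher (red), lower (blue) or not called (grey) in each comparison, by limma at an adjusted p below 0.05. Calls in both directions occur in 5 of the lists in the first 2 comparisons, and in the last one 13 of 80 genes are called.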

How the data were processed

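The 9 libraries were grouped by the sample labels into NRASG12D, NUP98-NSD1 and NUP98-NSD1+NRASG12D, 3 each. The deposited FPKM values were made by the authors with STAR 2.7.2a on GRCm38.p6 and Cufflinks 2.2.1, tools named in the submitters' processing notes, with the GENCODE M22 annotation. Strand handling and scaling between libraries are not given in the sources used here. FPKM hold no counts, so no count test was run. Each table had 55330 lines, and values of the same one of 55274 identifiers were summed. GENCODE M21 held 54882 of these, 54867 with equal coordinates.

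Depth was estimated from 3386 genes with a single transcript over 2500 bp as the lowest depth that puts low values on whole fragments. Between 85.3% and 87.9% of low values lay within 0.1 fragments of a whole number, and simulated depths were recovered. A floor of 3 fragments was used, which covers counting error only.

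Each pair of groups was fitted on its 6 libraries with limma 3.58.1 (R 4.3.3, lmFit, eBayes with trend) on log2(FPKM + 1), for genes with FPKM of at least 1 in at least 3 libraries. P-values were adjusted by Benjamini-Hochberg over 13493 genes, with a threshold of 0.05. On simulated data with 200 changed genes, 78%, 46% and 38% of log2 changes of 1 were found, and 98%, 90% and 84% of changes of 2. The order is NUP98-NSD1 against NRASG12D, double transduced against NRASG12D and double transduced against NUP98-NSD1 cells. In the data 52.1%, 38.3% and 8.61% of tested genes were called, far more than were changed there, so these rates need not apply to the data. Single values used two-sided exact permutation tests. Shared sequence was the percent of a gene's 50 base stretches, on either strand, found in transcripts of other genes. Python 3.11.15, numpy 2.4.6, pandas 2.3.3, scipy 1.17.1 and matplotlib 3.10.9 were used. The members and lists were chosen with earlier results of these data known. Named genes are the 9 members, Mras, neighbours of Nras, the 3 genes most correlated with Nras and, per comparison, the 3 largest rises and falls among called pathway genes whose groups did not overlap. Alternatives were a pseudocount of 0.1, no filter, quantile normalization, median-ratio scaling, all 9 libraries in 1 fit, array weights, a replicate block and leaving out each library. Protein sequences were not used here, and some genes that the rule or the lists hold are not reported here.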

Additional observations from a re-analysis of the deposited data

How the results depend on the processing

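Of 312 values of the 8 tested genes under the alternatives, 261 kept their direction and their side of the threshold, 20 turned in direction, 20 lost and 11 gained a call. No difference called at the settings of the report turned. The cause of these changes was not tested unless said. The number of the 9 genes called between double transduced and NUP98-NSD1 cells fell from 2 to 0 without the filter, where more genes are tested, to 1 under median-ratio scaling and to 1 with the replicate block, and ran from 0 to 2 when 1 library was left out. Between double transduced and NRASG12D cells it ran from 2 to 5 with a library left out, and between NUP98-NSD1 and NRASG12D cells from 3 to 5. The labels do not say whether the replicate numbers pair the samples. Deviations from the group means had correlations between -0.177 and 0.16 for libraries of the same number. Libraries of different numbers were not compared, so this cannot show whether the samples were paired. With the replicate block Rras in double transduced against NRASG12D cells and Rasal3 in double transduced against NUP98-NSD1 cells lost their calls, at log2 fold changes of 0.62 and -0.82.

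In NUP98-NSD1 against NRASG12D cells, quantile normalization gave log2 fold changes of -0.26 for Hras, -0.57 for Rras, -0.16 for Sike1 and -0.32 for Trim33, and median-ratio scaling gave -0.12, -0.04, -0.19 and -0.23. Leaving out a library gave -0.03 to 0.35 for Hras, -0.0048 to 0.18 for Rras, -0.20 to 0.01 for Rasa1 and -0.10 to 0.13 for Trim33. In double transduced against NRASG12D cells, Nras was at 0.40 with array weights and -0.62 to 0.14 with a library left out, Sike1 at -0.25 and -0.19 under the 2 scalings and -0.06 to 0.15, Trim33 at -0.02 under quantile normalization and Rasa1 at -0.36 to 0.02. In double transduced against NUP98-NSD1 cells, Rasa1 was at 0.08 and 0.05 under the 2 scalings and -0.26 to 0.13 with a library left out, Sos1 at 0.27 under quantile normalization, Sike1 at 0.05 with array weights and -0.21 to 0.01, and Bcas2 at -0.04 to 0.40. Over all tested genes, 7036 calls in NUP98-NSD1 against NRASG12D cells became 3065 with all 9 libraries in 1 fit. The 5173 calls in double transduced against NRASG12D cells became 2941 to 3159 without an NRASG12D replicate. The 1162 calls in double transduced against NUP98-NSD1 cells became 169 without the filter, 2251 with all 9 libraries, 3500 with array weights and 283 to 2509 with a library left out. Rras and Rras2 rest on at most an estimated 38.8 and 73.1 fragments per library.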
